A study of Mus musculus with 12 samples.

Results

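The genes described here are 10 transcripts that ERK signalling induces: the ETS-family transcription factors Etv4 and Etv5, the Sprouty and Spred inhibitors Spry1, Spry2, Spry4 and Spred1, the MAP kinase phosphatases Dusp4, Dusp5 and Dusp6, and Phlda1. They are 10 of 55471 genes in the deposited table, and all 10 were among the 14610 genes that passed the filter on low counts. The genes were chosen by symbol from what is known of ERK targets, at a time when the counts and TPM of the 4 groups had already been analysed, so the differences between groups given for them are a description and support nothing by themselves. RNA was sequenced from colonic crypts of 12 female C57BL/6 mice, 8 weeks of age, with 3 mice and 1 library per mouse in each group. The groups were CBPWTp53-floxed, CBPAAp53-floxed, CBPWTp53ΔIEC and CBPAAp53ΔIEC. In CBPAA mice, a pair of serines of CBP that the kinase IKKα phosphorylates was replaced with alanines in all tissues. CBP is the coactivator encoded by Crebbp. The knock-in was made in embryonic stem cells, which the paper describes both as of another strain, with backcrossing, and as C57BL/6N. In ΔIEC mice, Villin-Cre deleted both floxed p53 alleles in intestinal epithelial cells, whereas floxed mice carried the same alleles without Cre, so that p53 loss and the presence of Cre cannot be told apart. Littermate controls were used within a p53 state only.

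ERK is the last kinase of the cascade that runs from growth factor receptors through RAS, RAF and MEK. Active ERK induces its own inhibitors: Sprouty and Spred proteins act on the upper part of the cascade, and the DUSP phosphatases remove phosphate from MAP kinases, with Dusp6 acting on ERK in the cytoplasm and Dusp4 and Dusp5 in the nucleus. Etv4 and Etv5 carry the signal to transcription, and the levels of such transcripts are widely read as a measure of pathway output. In the intestine, EGF-family ligands act through this pathway at the base of the crypt, where stem and transit-amplifying cells divide.

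The libraries held between 11177430 and 18029125 counted reads. The deleted gene followed the labels: Trp53 lay between 39.3 and 52.6 CPM (the read count scaled to library size, with TMM factors) in the 6 floxed mice and between 5.01 and 10.4 CPM in the 6 ΔIEC mice. Crebbp lay between 38.1 and 57.6 CPM, but as the knock-in changes codons, its level is no check of that label. The 10 epithelial markers were abundant in all libraries (summed TPM of 12600 to 18200), whereas the 10 stromal markers summed to 4.18 to 8.36 TPM, the 10 leukocyte markers to 4.97 to 10.2 TPM and the 8 endothelial markers to 1.34 to 2.22 TPM, with Cdh5 at 0 reads in every library. 3 libraries stood apart. They were highest in the summed TPM of 10 genes of the small intestine, among them Apoa1, Fabp2, Sis and Lyz1. This sum was 6860 in CBPWTp53ΔIEC mouse 1, 3700 in CBPAAp53ΔIEC mouse 3 and 2980 in CBPAAp53-floxed mouse 2, compared with 672 to 1600 in the other 9. Of these genes, Fabp2 was abundant in every library (613 to 2530 TPM) and Lct had at most 4 reads. The origin of these transcripts was not tested. In log2 CPM over all genes tested, CBPWTp53ΔIEC mouse 1 correlated more closely with those 2 libraries of other groups (r = 0.981 with each) than with mice 2 and 3 of its own group (0.953 and 0.952). Fewer cells of a type and less RNA per cell cannot be told apart in these bulk libraries.

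The genomic DNA upstream of 3 members is shown because Etv5 and Dusp6 were the pair of members whose levels ran most closely together over the libraries, while Spry2 was among the members that varied least. RefSeq promoter windows (GRCm38.p6, 250 bases before to 50 after a start site) were at hand for 6 of the 10 members, 7 windows in all. The stretches below lie outside every GENCODE M21 exon and are written 5′ to 3′ on the strand of the gene, with GC boxes in capitals. Etv5 is on the minus strand at chr16:22439720-22439820 and ends 149 bases before the start site, Dusp6 is on the plus strand at chr10:99262981-99263230, and Spry2 is on the minus strand at chr14:105896820-105897069.
Etv5: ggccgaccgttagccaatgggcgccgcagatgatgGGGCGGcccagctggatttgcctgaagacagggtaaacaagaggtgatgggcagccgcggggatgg
Dusp6: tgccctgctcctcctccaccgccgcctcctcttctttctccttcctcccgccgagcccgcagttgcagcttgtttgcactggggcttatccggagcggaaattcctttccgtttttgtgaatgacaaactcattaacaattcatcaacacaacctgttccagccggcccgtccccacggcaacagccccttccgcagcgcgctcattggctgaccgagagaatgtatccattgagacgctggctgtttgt
Spry2: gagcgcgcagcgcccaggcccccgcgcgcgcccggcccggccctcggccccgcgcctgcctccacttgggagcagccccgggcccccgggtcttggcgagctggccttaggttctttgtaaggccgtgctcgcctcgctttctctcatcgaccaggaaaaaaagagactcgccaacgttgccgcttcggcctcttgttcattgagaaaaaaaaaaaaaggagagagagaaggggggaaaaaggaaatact

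5 motifs were searched on both strands of the whole windows, and in the members no match overlapped one of another motif. The ETS motif CCGGAAG was found in 0 of the 7 member windows and in 8.86% of all 32851 windows. The AP-1 motif TGANTCA was in 0 of 7 and 7.81% of all windows, and the cAMP response element TGACGTCA in 0 of 7 and 1.79%. The GC box GGGCGG was in 4 of the 7, those of Etv5 (1 of its 2 windows), Spry1, Spred1 and Dusp5, and in 35.7% of all windows. The CArG box, the site bound by serum response factor, was in 1 window, that of Dusp5, and in 1.63% of all windows. These matches describe letters in short windows and say nothing of binding.

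On the length-scaled measure (TPM), the members spanned a wide range of levels in CBPWTp53-floxed crypts. From high to low, their TPM was 35.3 ± 5.71 for Spry2, 26.8 ± 2.60 for Dusp6, 23.6 ± 1.67 for Etv5, 21.5 ± 3.89 for Phlda1, 15.2 ± 1.08 for Spred1, 11.8 ± 2.2 for Spry1, 6.92 ± 1.26 for Dusp5, 6.23 ± 1.08 for Etv4, 3.96 ± 0.377 for Dusp4 and 1.00 ± 0.260 for Spry4 (SD, n = 3). Neighbours in this order whose mice overlapped were Dusp6 and Etv5, Etv5 and Phlda1, and Dusp5 and Etv4, and the other neighbours did not overlap in this group. Spry4, the least abundant, rested on 14 to 67 reads per library and Dusp4 on 43 to 79, so counting error alone is large for these genes. The members differed in how much they varied, with no clear gap between Phlda1 and the members below it. Over the 12 libraries the highest CPM was 4.92 times the lowest for Etv4, 3.59 for Spry4, 2.95 for Dusp6, 2.67 for Etv5 and 2.00 for Phlda1, and between 1.57 and 1.87 for Spry1, Spry2, Spred1, Dusp4 and Dusp5.

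**Figure D1:**
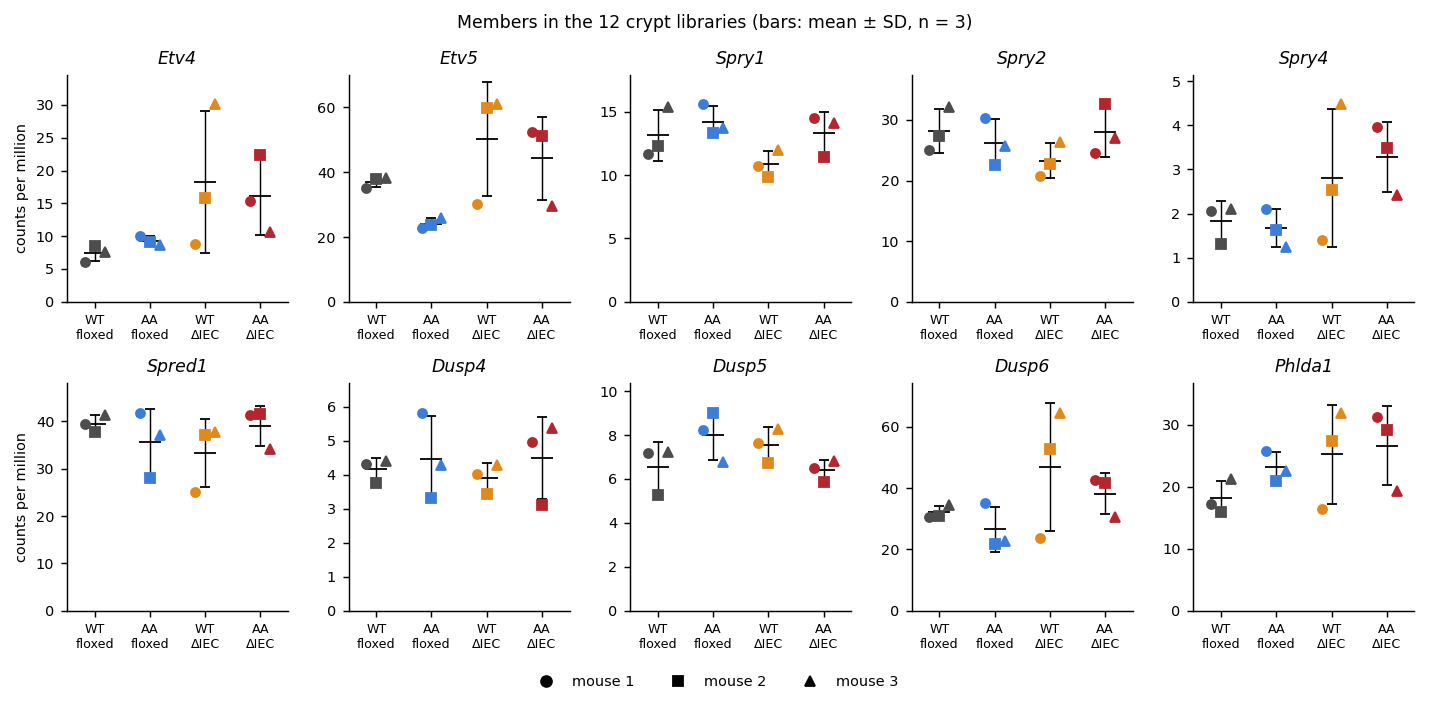
CPM of each member (y axis, linear from 0) in the 4 groups (x axis, WT and AA for the CBP genotype), with 1 point per mouse, the marker shape giving the mouse's number in its group, and bars for mean ± SD (n = 3). Etv4 reached 30.1 CPM and Dusp6 64.5 CPM in CBPWTp53ΔIEC mouse 3, while mouse 1 of that group stayed at 8.87 and 23.8 CPM.

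Etv4 (ENSMUSG00000017724, minus strand of chromosome 11, 101769742 to 101785371, GRCm38), a PEA3-subfamily ETS factor, had 6.11, 8.43 and 7.66 CPM in the 3 CBPWTp53-floxed mice and 10.1, 9.12 and 8.65 CPM in the 3 CBPAAp53-floxed mice. In ΔIEC crypts it had 8.87, 15.8 and 30.1 CPM in CBPWT and 15.4, 22.4 and 10.6 CPM in CBPAA mice. All 3 mice of each ΔIEC group were above all 3 floxed mice of the same CBP genotype, but CBPWTp53ΔIEC mouse 1 and CBPAAp53ΔIEC mouse 3 were close to the floxed range. The fitted log2 fold change was 1.30 ± 0.38 (SE; 2.46-fold) in CBPWTp53ΔIEC vs. CBPWTp53-floxed crypts, the largest of the members in any of the comparisons, with an adjusted p of 0.0815 from edgeR over all genes tested and 0.0079 from DESeq2. In CBPAAp53ΔIEC vs. CBPAAp53-floxed crypts it was 0.79 ± 0.38 (adjusted p = 0.408 from edgeR). The gene lies 32.2 Mb from Trp53 on the same chromosome.

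Etv5 (ENSMUSG00000013089, minus strand of chromosome 16, 22381309 to 22439719), the second PEA3-subfamily factor, had 35.2, 37.8 and 38.2 CPM in CBPWTp53-floxed mice and 22.8, 23.8 and 25.9 CPM in CBPAAp53-floxed mice. It was the only member lower in every CBPAAp53-floxed mouse than in every CBPWTp53-floxed mouse, with a spread within each group of 1.62 and 1.55 CPM (SD, n = 3). ΔIEC mice had 30.1, 59.9 and 61.0 CPM in the CBPWT group and 52.4, 51.1 and 29.6 CPM in the CBPAA group. In the CBPAA background all ΔIEC mice were above all floxed mice, whereas CBPWTp53ΔIEC mouse 1 was below all 3 CBPWTp53-floxed mice. The log2 fold change was -0.62 ± 0.26 in CBPAAp53-floxed vs. CBPWTp53-floxed (0.651-fold, adjusted p = 0.618 from edgeR) and 0.88 ± 0.26 in CBPAAp53ΔIEC vs. CBPAAp53-floxed (1.84-fold, adjusted p = 0.320). Both comparisons use the same 3 CBPAAp53-floxed mice. In CBPWTp53ΔIEC vs. CBPWTp53-floxed it was 0.44 ± 0.25 (adjusted p = 0.336), and the interaction, the log2 fold change with p53 deletion in CBPAA minus that in CBPWT crypts, was 0.43 ± 0.36 (adjusted p = 0.650). Etv5 lies 18.2 Mb from Crebbp on chromosome 16, which carries the CBPAA allele.

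Among the Sproutys, adaptor-like inhibitors that act near receptor tyrosine kinases, Spry4 (ENSMUSG00000024427, chromosome 18) was the one whose level ran with that of Etv4 over the libraries. It had 2.07, 1.30 and 2.11 CPM in CBPWTp53-floxed, 2.11, 1.63 and 1.25 in CBPAAp53-floxed, 1.40, 2.54 and 4.48 in CBPWTp53ΔIEC and 3.97, 3.48 and 2.42 CPM in CBPAAp53ΔIEC mice. The CBPAA groups did not overlap and the CBPWT groups did. The log2 fold change with p53 deletion was 0.97 ± 0.38 in CBPAA (adjusted p = 0.359 from edgeR) and 0.65 ± 0.38 in CBPWT crypts (adjusted p = 0.351).

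Spry1 (ENSMUSG00000037211, plus strand of chromosome 3, 37639947 to 37644598) had 11.7, 12.3 and 15.4 CPM in CBPWTp53-floxed, 15.6, 13.3 and 13.7 in CBPAAp53-floxed, 10.7, 9.82 and 12.0 in CBPWTp53ΔIEC and 14.5, 11.4 and 14.1 CPM in CBPAAp53ΔIEC mice. Spry2 (ENSMUSG00000022114, minus strand of chromosome 14, 105891947 to 105896819), the most abundant member, had 25.0, 27.3 and 32.2 CPM in CBPWTp53-floxed, 30.4, 22.5 and 25.7 in CBPAAp53-floxed, 20.7, 22.7 and 26.4 in CBPWTp53ΔIEC and 24.6, 32.6 and 27.0 CPM in CBPAAp53ΔIEC mice. The groups overlapped in all 4 pairwise comparisons for both genes, and their log2 fold changes lay between -0.28 and 0.29. In these genes the 95% confidence intervals of the difference with p53 deletion in CBPWT crypts ran from -0.60 to 0.05, so a rise of the size fitted for Etv4 lies outside them.

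Spred1 (ENSMUSG00000027351, plus strand of chromosome 2, 117121374 to 117182279), which recruits the RAS inhibitor neurofibromin to the membrane, had 39.4, 37.8 and 41.4 CPM in CBPWTp53-floxed and 41.8, 28.0 and 37.1 CPM in CBPAAp53-floxed mice. In ΔIEC crypts it had 25.1, 37.1 and 37.8 CPM in CBPWT and 41.3, 41.5 and 34.1 CPM in CBPAA mice. Its 2 lowest libraries, CBPWTp53ΔIEC mouse 1 and CBPAAp53-floxed mouse 2, were among the 3 highest in small-intestinal genes, and CBPAAp53ΔIEC mouse 3 was the next lowest. All CBPWTp53ΔIEC mice were below all CBPWTp53-floxed mice, by a log2 fold change of -0.24 ± 0.17 (adjusted p = 0.433 from edgeR).

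The phosphatases differed among themselves. Dusp6 (ENSMUSG00000019960, plus strand of chromosome 10, 99263231 to 99267489), the cytoplasmic ERK phosphatase, had 30.7, 31.0 and 34.5 CPM in CBPWTp53-floxed and 35.0, 21.8 and 22.7 CPM in CBPAAp53-floxed mice. In ΔIEC crypts it had 23.8, 52.6 and 64.5 CPM in CBPWT and 42.5, 41.5 and 30.4 CPM in CBPAA mice. Mice 2 and 3 of the CBPWTp53ΔIEC group were the 2 highest of all 12, but mouse 1 lay below every CBPWTp53-floxed mouse, so the groups overlapped. The log2 fold change with p53 deletion was 0.55 ± 0.30 in CBPWT (adjusted p = 0.323 from edgeR) and 0.52 ± 0.31 in CBPAA crypts (adjusted p = 0.480).

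The nuclear phosphatase Dusp5 (ENSMUSG00000034765, plus strand of chromosome 19, 53529109 to 53542431) had 7.19, 5.25 and 7.22 CPM in CBPWTp53-floxed, 8.23, 9.01 and 6.78 in CBPAAp53-floxed, 7.66, 6.72 and 8.30 in CBPWTp53ΔIEC and 6.48, 5.87 and 6.84 CPM in CBPAAp53ΔIEC mice. Its log2 fold change with p53 deletion was 0.21 ± 0.18 in CBPWT and -0.33 ± 0.18 in CBPAA crypts, and the interaction of -0.54 ± 0.26 was the nearest of the members to passing that test (adjusted p = 0.489 from edgeR). Dusp4 (ENSMUSG00000031530, plus strand of chromosome 8, 34807297 to 34819894), also nuclear, stayed between 3.11 and 5.82 CPM in the 12 libraries, with overlapping groups and log2 fold changes between -0.09 and 0.20.

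Phlda1 (ENSMUSG00000020205, plus strand of chromosome 10, 111506286 to 111508645), a pleckstrin-homology-like protein that marks crypt-base epithelium, had 17.2, 15.9 and 21.2 CPM in CBPWTp53-floxed, 25.8, 20.9 and 22.6 in CBPAAp53-floxed, 16.4, 27.3 and 31.9 in CBPWTp53ΔIEC and 31.2, 29.2 and 19.3 CPM in CBPAAp53ΔIEC mice. The lowest mouse of each ΔIEC group was again mouse 1 of CBPWT and mouse 3 of CBPAA. Its log2 fold change was 0.48 ± 0.23 with p53 deletion in CBPWT (adjusted p = 0.257 from edgeR) and 0.20 ± 0.23 in CBPAA crypts (adjusted p = 0.726). Spry1, Spry4, Dusp5 and Phlda1 overlap annotated noncoding genes on the opposite strand (GENCODE M21), and because the sources used here do not give the strand setting of the counting, reads of those partners cannot be told apart from theirs.

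**Figure D2:**
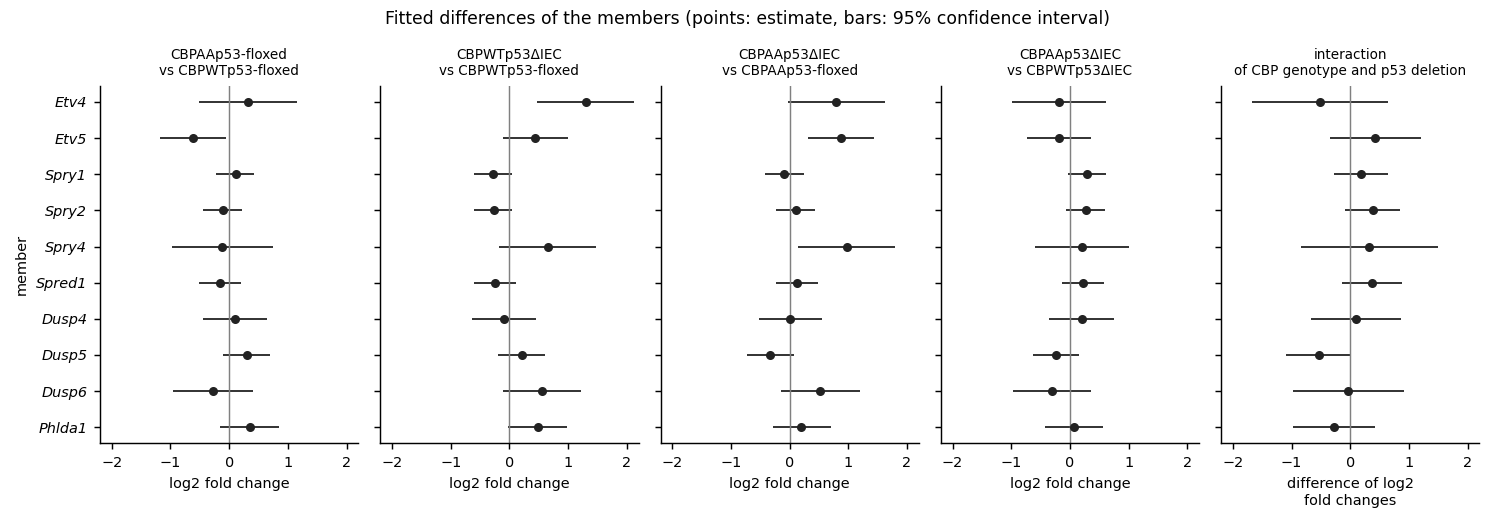
Fitted log2 fold change of each member (x axis) in the 4 pairwise comparisons, and the difference of log2 fold changes in the interaction (right panel), with points for the estimate and bars for the 95% confidence interval over 12 libraries. Etv4 in CBPWTp53ΔIEC vs. CBPWTp53-floxed, at 1.30, is the farthest from 0, and the CBPAAp53ΔIEC vs. CBPWTp53ΔIEC estimates lie between -0.31 and 0.29.

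In all 5 comparisons, 0 of the 10 members passed an adjusted p of 0.05 with a log2 fold change above 0.5 in size in edgeR. In CBPAAp53-floxed vs. CBPWTp53-floxed crypts, which ask about CBP phosphorylation with p53 present, 0 genes in all passed (0% of 14610). There, 1 member, Etv5, had an unadjusted p under 0.05 (8.04% of all genes did), 2 members did not overlap between groups (Etv4 higher and Etv5 lower, against 19.4% of all genes in either direction), and DESeq2 called 0 members and 0.122% of its genes. 5 members had a positive and 5 a negative log2 fold change, with a median of 0.00 against 0.01 over all genes tested.

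In CBPWTp53ΔIEC vs. CBPWTp53-floxed crypts, which ask about p53 loss with wild-type CBP, 460 genes passed in edgeR (3.15%) and 0 members did. 1 member, Etv4, had an unadjusted p under 0.05 (20.9% of all genes), and 2 members did not overlap (Etv4 higher and Spred1 lower, against 30.8%). DESeq2 called Etv4 and 6.17% of its genes. 6 members were higher, and their median log2 fold change was 0.33 against 0.01 over all genes. The count depended on single libraries. Without CBPWTp53ΔIEC mouse 1, edgeR called 4 members, Etv4 (1.61), Etv5 (0.70), Dusp6 (0.86) and Phlda1 (0.70, all log2 fold changes), and 906 genes (6.06%). Without any 1 of the CBPWTp53-floxed mice or CBPWTp53ΔIEC mouse 2 or 3 it called between 1 and 7 genes and 0 members. Without CBPWTp53ΔIEC mouse 3 the log2 fold changes were smaller, at 0.74 for Etv4, 0.28 for Etv5, 0.26 for Dusp6, 0.28 for Phlda1 and 0.14 for Spry4.

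In CBPAAp53ΔIEC vs. CBPAAp53-floxed crypts, the same question with mutant CBP, 4 genes passed in edgeR (0.0274%) and 0 members did. 2 members, Etv5 and Spry4, had an unadjusted p under 0.05 (12.6% of all genes), 3 members were higher without overlap (Etv4, Etv5 and Spry4, against 15% of genes in either direction), and DESeq2 called 0 members and 0.542% of its genes. 8 members were higher, with a median log2 fold change of 0.17 against 0.01 over all genes. Without CBPAAp53ΔIEC mouse 3, edgeR called Etv5 (1.1, adjusted p = 0.0336) and 326 genes (2.19%).

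Between CBPAAp53ΔIEC and CBPWTp53ΔIEC crypts, which ask about CBP phosphorylation once p53 is gone, edgeR called 1 gene (0.00684%) and 0 members, 0 members had an unadjusted p under 0.05 (3.57% of genes), 0 did not overlap (9.26%), and DESeq2 called 0 members and 0.00369% of its genes. In the interaction, edgeR again called 1 gene (0.00684%) and 0 members, 0 members had an unadjusted p under 0.05 (10.3% of genes), and DESeq2 called 0 members and 0.207% of its genes. The comparisons share mice, so their values for a member are not independent of each other. Between the ΔIEC groups the 95% confidence interval was wide for Etv4 (-0.99 to 0.62) and Spry4 (-0.59 to 1.00) and narrower for Spry1 (-0.04 to 0.62), Spry2 (-0.06 to 0.60) and Dusp5 (-0.63 to 0.15).

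**Figure D3:**
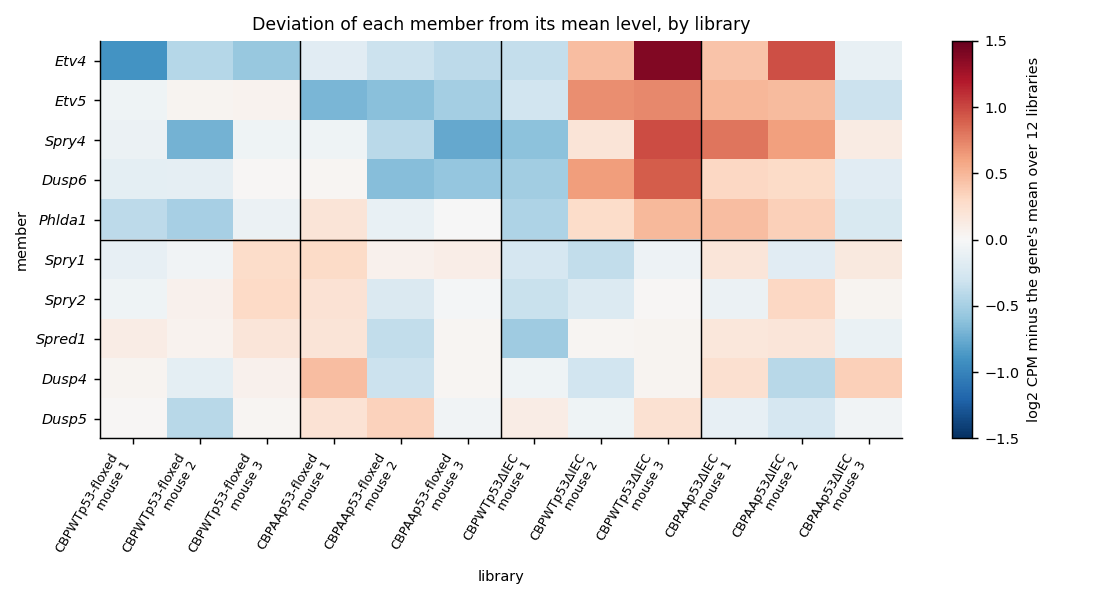
Deviation of each member's log2 CPM from its own mean over the 12 libraries (colour, red above and blue below), with libraries in columns and members in rows, the rows being ordered after the values were seen. In the upper 5 rows, CBPWTp53ΔIEC mice 2 and 3 and CBPAAp53ΔIEC mice 1 and 2 are red, and CBPWTp53ΔIEC mouse 1 is blue.

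Etv4, Etv5, Spry4, Dusp6 and Phlda1 ran together from mouse to mouse. Pearson's r of log2 CPM over the 12 libraries was 0.86 for Etv5 and Dusp6, 0.84 for Spry4 and Dusp6, 0.82 for Etv4 and Phlda1 and 0.56 for Etv5 and Phlda1, the lowest among these 5 genes, and with the group means taken out these pairs gave 0.80, 0.88, 0.81 and 0.89. These r are descriptions over 12 libraries that share group, depth and tissue make-up, and the 5 genes were set apart after their values were seen. Of the other members, Spry2 and Spred1 had an r of 0.74 and Spry1 and Dusp4 of 0.68, while Dusp5 reached at most 0.22 with any member. Spred1 joined the 5 genes once the group means were taken out, with an r of 0.90 with Dusp6 and 0.86 with Phlda1, compared with 0.56 and 0.49 before.

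The mice in which the 5 genes were high were also those with the most RNA of proliferation genes. The summed TPM of 20 such genes, among them Mki67, Top2a and Pcna, was 426, 897 and 956 in CBPWTp53ΔIEC mice 1, 2 and 3 and 751, 727 and 307 in CBPAAp53ΔIEC mice 1, 2 and 3, compared with 261 to 375 in the 6 floxed mice. All 20 were measured, and 18 of them passed in CBPWTp53ΔIEC vs. CBPWTp53-floxed crypts (3.15% of all genes did), all higher, with a median log2 fold change of 1.73. In CBPAAp53ΔIEC vs. CBPAAp53-floxed crypts 0 passed in edgeR (0.0274% of all genes did), with all 20 higher and a median of 0.99. With this sum on a log scale, r over the 12 libraries was 0.90 for Etv4, 0.83 for Dusp6, 0.81 for Etv5, 0.78 for Spry4 and 0.78 for Phlda1, and between -0.45 and 0.20 for the other 5 members, of which Spred1 rose from 0.20 to 0.80 with group means taken out. CBPWTp53ΔIEC mouse 1 and CBPAAp53ΔIEC mouse 3, the ΔIEC mice with the least RNA of proliferation genes, were 2 of the 3 libraries highest in small-intestinal genes. With the small-intestinal sum, r over the 12 libraries was -0.82 for Spred1, -0.57 for Dusp6, -0.56 for Spry2, -0.54 for Etv5, -0.50 for Phlda1, -0.39 for Etv4 and -0.38 for Spry4, and 0.08, 0.26 and 0.44 for Spry1, Dusp4 and Dusp5. With group means taken out it was -0.89 for Etv5, -0.84 for Spred1, -0.82 for Etv4, -0.80 for Phlda1, -0.79 for Dusp6, -0.59 for Spry4 and -0.54 for Spry2. For Spry1, Dusp4 and Dusp5 it was then 0.24, 0.30 and 0.42. Other lists ran with the members too. With the sum of 10 stem cell and Wnt target genes, among them Lgr5 and Axin2, r over the 12 libraries was 0.81 for Spred1, 0.78 for Dusp6, 0.73 for Spry4 and 0.66 for Phlda1. It was 0.58 for Etv5, 0.51 for Spry2 and 0.49 for Etv4, and 0.27, 0.23 and -0.04 for Spry1, Dusp4 and Dusp5. For the mean standardized level of the 10 members it was 0.87, compared with 0.61 for the proliferation sum. With group means taken out these were 0.94 and 0.72. With the epithelial sum r was 0.75 for Dusp5 and between -0.36 and 0.40 for the other members. With the leukocyte sum it was 0.81 for Spry4 and 0.74 for the mean level, at leukocyte sums of at most 10.2 TPM. The part of tissue make-up in the members' values was not tested beyond the fits below.

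**Figure D4:**
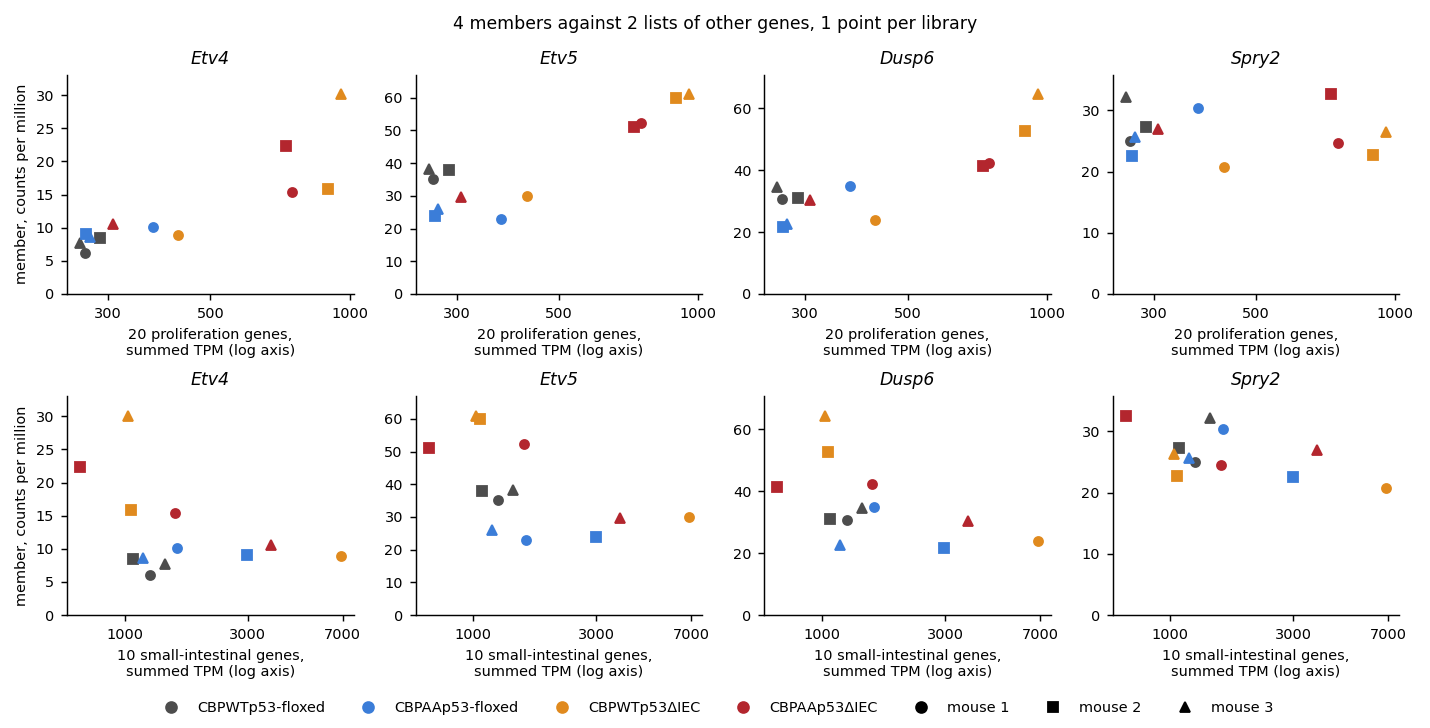
CPM of Etv4, Etv5, Dusp6 and Spry2 (y axis, linear from 0) against the summed TPM of 20 proliferation genes (upper row) and of 10 small-intestinal genes (lower row; x axes are log scales), with 1 point per library, colour for the group and shape for the mouse. The 4 ΔIEC libraries at 727 TPM or more of proliferation genes hold the highest Etv4, Etv5 and Dusp6, and Spry2 shows no such order.

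When the 3 libraries highest in small-intestinal genes were left out (9 libraries, with 2 mice in each group but CBPWTp53-floxed), more members were called. In CBPWTp53ΔIEC vs. CBPWTp53-floxed crypts, edgeR called Etv4 (log2 fold change 1.60 ± 0.30, adjusted p = 0.00686), Dusp6 (0.85 ± 0.15, 0.00206), Etv5 (0.68 ± 0.08, 2.86e-05), Phlda1 (0.68 ± 0.13, 0.00126) and Spry4 (0.93 ± 0.31, 0.0435), with 1705 genes called in all (11.6%). Spry1, Spry2, Spred1, Dusp4 and Dusp5 lay between -0.29 and 0.18 and were not called. In CBPAAp53ΔIEC vs. CBPAAp53-floxed crypts, Etv5 alone was called (1.08 ± 0.10, adjusted p = 5e-06), among 1324 genes (8.98%). There Etv4 had 1.00 ± 0.34 (adjusted p = 0.0921), Spry4 1.11 ± 0.36 (0.0514) and Dusp6 0.52 ± 0.17 (0.0667), while Phlda1, at 0.31 ± 0.14 (0.159), was no larger in size than Dusp4 (-0.34 ± 0.27). Etv5 was also called lower in CBPAAp53-floxed vs. CBPWTp53-floxed crypts (-0.62 ± 0.09, adjusted p = 0.0141), 1 of 32 genes (0.217%). The estimate was the same with all 12 libraries, where its SE was 0.26. With only these 2 groups compared, the SE was 0.10 and Etv5 was not called (adjusted p = 0.185 from edgeR). With the covariate described below, 0 members were called in this comparison. Between the ΔIEC groups (1 gene, 0.00678%) and in the interaction (6 genes, 0.0407%), 0 members were called by edgeR. With all 12 libraries and the small-intestinal sum as a covariate, Etv4, Etv5, Dusp6 and Phlda1 were called in CBPWTp53ΔIEC vs. CBPWTp53-floxed (8.73% of all genes tested were called) and Etv5 in CBPAAp53ΔIEC vs. CBPAAp53-floxed crypts (1.92% of all genes). Both settings were added after the values were seen, and 2 of the 3 libraries left out were also the lowest of their ΔIEC group in each of the 5 genes.

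**Figure D5:**
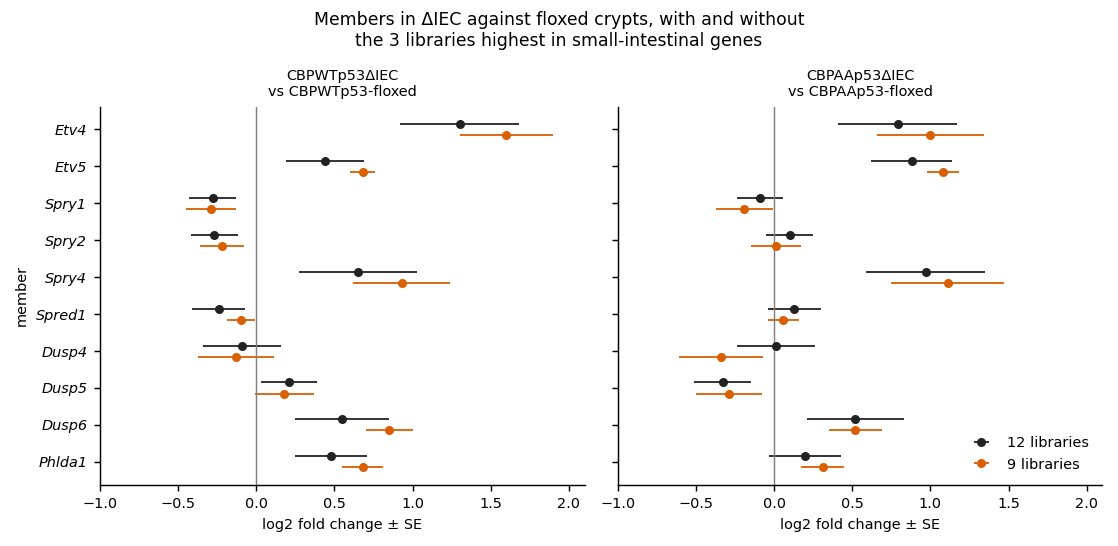
Log2 fold change ± SE of each member (x axis) in ΔIEC vs. floxed crypts of each CBP genotype, from all 12 libraries (black) and from the 9 left without the 3 libraries highest in small-intestinal genes (orange). Etv5 in CBPWT crypts is 0.44 in the former and 0.68 in the latter, and Spry1 is -0.28 and -0.29.

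Genes of the pathway outside the members were read from 4 further lists. Of 20 ERK cascade proteins, all measured, 0 passed in any of the 5 comparisons in edgeR, and between 0 and 2 had an unadjusted p under 0.05. Their median log2 fold changes lay between -0.09 and 0.06. Those with the smallest p in CBPWTp53ΔIEC vs. CBPWTp53-floxed crypts were the RAS exchange factor Sos2 (-0.41 ± 0.13, adjusted p = 0.0897), the kinase Braf (-0.33 ± 0.13, adjusted p = 0.155) and the adaptor Grb2 (0.20 ± 0.10, adjusted p = 0.262). Sos1, the other RAS exchange factor, had -0.39 ± 0.14 in CBPAAp53-floxed vs. CBPWTp53-floxed (adjusted p = 0.618) and 0.38 ± 0.14 in CBPAAp53ΔIEC vs. CBPAAp53-floxed crypts (adjusted p = 0.344), a pair of comparisons that share mice.

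Of 20 receptors and ligands, 15 passed the filter on low counts. The receptor Egfr had a mean of 8.70 TPM over the 12 libraries, and Erbb4, Fgf2, Fgf7, Hgf and Epgn were left out by the filter, with means of at most 0.139 TPM. The EGF-family ligand Btc passed in CBPWTp53ΔIEC vs. CBPWTp53-floxed crypts, where it was lower (-0.66 ± 0.16, adjusted p = 0.0418; mean of 5.95 against 9.40 CPM). It was the only gene of the list that edgeR called in any comparison. DESeq2 called Btc and the ligand Egf there, both lower (Egf -0.69 ± 0.21, adjusted p = 0.0167, against 0.061 in edgeR). In CBPAAp53-floxed vs. CBPWTp53-floxed crypts the ligand Hbegf had 0.71 ± 0.29 and Egfr -0.38 ± 0.13 (adjusted p = 0.618 for both).

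Of 15 other ERK-induced genes, 14 were measured and 0 passed in any comparison in edgeR, with between 0 and 3 at an unadjusted p under 0.05. In CBPWTp53ΔIEC vs. CBPWTp53-floxed crypts 7 were higher and 7 lower, and the nearest to passing was the cell cycle gene Ccnd1 (0.45 ± 0.12, adjusted p = 0.0603; mean of 118 against 86.1 CPM). Trib1, a pseudokinase, had 0.66 ± 0.23 in the same comparison (adjusted p = 0.128). Myc had 0.40 ± 0.10 in CBPAAp53-floxed vs. CBPWTp53-floxed crypts (adjusted p = 0.605; mean of 47.7 against 36.1 CPM). The list's median log2 fold change was -0.01 in CBPWTp53ΔIEC vs. CBPWTp53-floxed crypts, against 0.33 for the members and 0.01 over all genes.

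Relatives of the members were listed as well, 16 genes of the same families, of which 14 passed the filter. Phlda3, a p53 target that restrains AKT, was lower in CBPWTp53ΔIEC than in CBPWTp53-floxed crypts (mean of 0.0869 against 1.09 CPM, adjusted p = 0.0329 from edgeR, not called by DESeq2), and Phlda2 was higher (1.70 ± 0.37, adjusted p = 0.0340; mean of 1.75 against 0.519 CPM). These 2 were the only relatives that edgeR called in any comparison. In CBPAAp53ΔIEC vs. CBPAAp53-floxed crypts Phlda3 had -4.17 ± 0.74 (adjusted p = 0.154 from edgeR; mean of 0.0724 against 1.40 CPM). Group means of both genes were at most 1.75 CPM, so they rest on few reads. Dusp1, an immediate early phosphatase of several MAP kinases, had -0.80 ± 0.22 in CBPAAp53ΔIEC vs. CBPAAp53-floxed crypts (adjusted p = 0.320). Etv1, the third PEA3-subfamily factor, was scarce, with 0.256 TPM on average over the 12 libraries.

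4 other genes that ran close to the mean of the members' standardized log2 CPM, by Pearson's r over 12 libraries, are named here. They were Nbas (r = 0.931), a protein of retrograde transport to the endoplasmic reticulum, Larp1 (0.916), an RNA-binding protein of ribosomal protein mRNAs, Uggt1 (0.912), a glycoprotein folding sensor, and Cep152 (0.911), needed for centriole duplication. Their CPM ran from 19.1 to 27.4, 176 to 228, 68.7 to 102 and 5.23 to 12.7, in that order. They were picked for the highest r among all genes tested, so a high r comes with the choice and supports nothing. Pairs of members had an r between -0.47 and 0.86, so the mean does not stand for a pattern that all members share. The mean standardized level was highest in CBPWTp53ΔIEC mouse 3 (0.96) and lowest in CBPWTp53ΔIEC mouse 1 (-0.93), within 1 group.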

How the data were processed

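Crypts were isolated with EDTA, and poly(A) RNA was sequenced. Per the labels, the authors' processing notes list fastp 0.20.0, FastQC 0.11.9, HISAT2 2.1.0, SAMtools 1.9, featureCounts of Subread 2.0.1 and GRCm38. The authors deposited the raw counts of each gene, its TPM (scaled to gene length and library size), and fold changes and p-values of 5 comparisons of their own, which were not used. Counts were analysed with edgeR 4.0.16 in R 4.3.3 (filterByExpr with a minimum count of 10, TMM, robust quasi-likelihood fit of 4 groups over 12 libraries). P-values were adjusted by the Benjamini-Hochberg method over all 14610 genes tested, and genes were called where the adjusted p was below 0.05 and the log2 fold change was beyond 0.5 in either direction. TPM was used for levels between genes and for summed lists. Mice of a group were treated as replicates. Alternatives were DESeq2 1.42.0, DESeq2's size factors, other filters, a replicate block, 2 groups at a time and each library left out. The members, lists and rules were chosen with earlier results of these data known. Besides the members, genes of 4 pathway lists were named if called, and otherwise from the 3 smallest p per comparison, with the 5 genes most like the members, 1 of which is not reported here. The fits were tested on simulated data in which no library stood apart. That test does not bear on how single libraries moved the calls. Sequences are from RefSeq.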

Additional observations from a re-analysis of the deposited data

How the results depend on the processing

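The number of members called stayed at 0 in all 5 comparisons with DESeq2's size factors in edgeR, with no filter on low counts, with at least 10 counts in every library, with a replicate block, and, where it could be run, with only the 2 groups compared. It moved in CBPWTp53ΔIEC vs. CBPWTp53-floxed, to 1 with DESeq2 and to between 0 and 4 with each library left out in turn (4 without CBPWTp53ΔIEC mouse 1, 0 otherwise), and in CBPAAp53ΔIEC vs. CBPAAp53-floxed, to between 0 and 1 with each library left out (1 without CBPAAp53ΔIEC mouse 3). Without the 3 libraries highest in small-intestinal genes it was 1, 5 and 1 in CBPAAp53-floxed vs. CBPWTp53-floxed, CBPWTp53ΔIEC vs. CBPWTp53-floxed and CBPAAp53ΔIEC vs. CBPAAp53-floxed, and with the small-intestinal level as a covariate 4 and 1 in the latter pair, both settings chosen after seeing the data. 35 of 990 values of member log2 fold changes under alternatives had another sign than in the edgeR fit given in the Results. The largest log2 fold change of that fit so affected was 0.51 in size. Over all genes, calls in the 5 comparisons (0, 460, 4, 1 and 1) were 33, 863, 73, 1 and 30 with DESeq2, 3, 415, 11, 1 and 2 without a filter, and 0, 32, 2, 0 and 0 with the replicate block. Same-numbered mice of different groups did not deviate together (3 of 18 correlations over 0.1, from -0.53 to 0.55), so the numbers were not taken as pairs. With only the 2 groups compared, all-gene calls were 0, 723, 1 and 0. With 3 mice per group an exact permutation test of a single gene cannot go below p = 0.1, and Spry4 and Dusp4 rest on few reads.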

Other observations

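The immediate early genes that respond to tissue handling, 10 genes in all, were also read because several are ERK targets. Their summed TPM lay between 497 and 855 in the floxed mice and between 525 and 760 in the ΔIEC mice, and 0 of the 10 passed in any of the 5 comparisons in edgeR, with at most 3 at an unadjusted p under 0.05 and 0 called by DESeq2. All 10 had a negative log2 fold change in CBPAAp53ΔIEC vs. CBPAAp53-floxed crypts (median -0.30, 3 at an unadjusted p under 0.05), and 9 of 10 a positive one in CBPAAp53-floxed vs. CBPWTp53-floxed crypts (median 0.31), comparisons that share mice. Over the 12 libraries the r of their sum with the mean standardized level of the members was 0.57, and 0.71 with group means taken out. The 10 stem cell and Wnt target genes summed to 181 TPM in CBPWTp53ΔIEC mouse 1, the lowest of the 12 libraries, and to 262 TPM in CBPWTp53ΔIEC mouse 3, the highest.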
